A study of Mus musculus with 6 samples.

Results

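Described here are 428 acetylated domains with the greatest peak-covered length in wild-type mouse heart muscle nuclei, out of 15030 domains built from WT replicate 2. Peaks of histone H3 acetylated at lysine 27 (H3K27ac) on chromosomes 1 to 19 were united in WT replicate 2 and in WT replicate 3 separately, joined where the gap between them was at most 12.5 kb, and ranked by the length that peaks cover. A domain was kept when it stood among the top 500 of WT replicate 2 and overlapped one of the top 500 of the 18338 domains of WT replicate 3. The study profiled H3K27ac by CUT&RUN, in which an antibody tethers a nuclease that releases the marked chromatin for sequencing. Nuclei were taken from FVB mice of 8 to 12 weeks, out of the left ventricle, and were sorted for PCM-1, a centrosomal protein found around cardiomyocyte nuclei. There were 3 wild-type libraries (WT) and 3 libraries labelled HOM from a double knockout of Nppa and Nppb, which encode the natriuretic peptides ANP and BNP. The breeding protocol given for all 6 libraries also names Myh6-MerCreMer, nTnG and Sun1/sfGFP mice on FVB/N, without saying which library carried which allele. Whether each library is a separate mouse is not stated in the labels, and the spread between libraries, and any p-value resting on it, may be technical.

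H3K27ac marks active promoters and enhancers. Where many marked elements lie close together they form long domains, often called super enhancers or stretch enhancers, which in many cell types sit at genes of cell identity. In heart muscle such genes include the cardiac transcription factors and the genes of the sarcomere, of calcium handling and of mitochondrial energy supply.

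The 6 lists differed greatly in length, and this sets every absolute coverage below. Wherever 3 values are given for a genotype, they stand for its replicates 1, 2 and 3 in that order. The lists held 21340, 72362 and 106605 peaks for WT, and for HOM 48102, 1462 and 15184. On chromosomes 1 to 19 they covered 6.48, 31.2 and 54.8 Mb in the WT libraries and 17.0, 0.184 and 4.38 Mb in the HOM libraries. Without read counts in the lists, sequencing depth is unknown. HOM replicate 2 stood far apart, and each result that uses it is also given without it. WT replicates 2 and 3 chose the domains, so their coverage is given as a description. Of the WT libraries that leaves WT replicate 1 for comparison with the HOM libraries.

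Set apart from the 428 domains were 10 loci, by a criterion added after the data were seen. In these 10 loci HOM replicate 2 covered at least 500 bp and WT replicate 1 covered at least 60% of the length covered in WT replicate 2. The planned criterion, at least 3 predicted genes and no more other genes than predicted ones in a domain, took in 16 domains. Of these, 6 were among the 10 loci, 9 held a named coding gene such as Rbm20, Sorbs2, Nkx2-5 or Prdm16 beside noncoding predicted genes, and 1 was a noncoding stretch of chromosome 2. The locus of Gm15319 at chr8:20258008-20441340 ranked 2 in WT replicate 2. Peaks lay over 63983, 83735 and 59176 bp of it in WT, against 69287, 3416 and 44961 bp in HOM. A neighbouring locus of Gm40469 and Gm21119 ranked 5, and a further stretch of the same region, without a coding gene, ranked 14. The locus of Sfi1 at chr11:3120243-3202536 was covered over 46362, 50121 and 47796 bp in the WT libraries and 45160, 21520 and 43493 bp in the HOM libraries. The gene-free start of chromosome 9, at chr9:2999895-3038414, was a single peak in WT replicate 2 and was covered over 36093 to 38520 bp in all 6 libraries. Covered length here differed far less between the short and the long lists than in the other 418 domains, whose medians were 4531 bp in WT replicate 1 and 18096 bp in WT replicate 2; the criterion itself selects for this. Between 21.5% and 23.6% of their peaks in the 5 longer lists lay in coding genes, against 83.5% to 86.9% of the peaks in the other 418 domains. How reads matching several places in the genome were treated is not given in the sources used here. What follows concerns the remaining 418 domains.

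The 418 domains spanned 27.2 Mb in all. A domain had a median span of 55.4 kb, between 17.2 and 220.6 kb, and a median of 33 peaks in WT replicate 2. The length chosen on, that covered by peaks in WT replicate 2, had a median of 18.1 kb and reached 94.1 kb. The last domain inside the threshold, at Zbtb20, ranked 498 with 10911 bp. Ranks 499 and 500 had 10880 bp each and no partner in the top 500 of WT replicate 3, and rank 501 had 10861 bp. Coverage thus fell smoothly through the threshold, as the curve of covered length against rank shows.

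**Figure D1:**
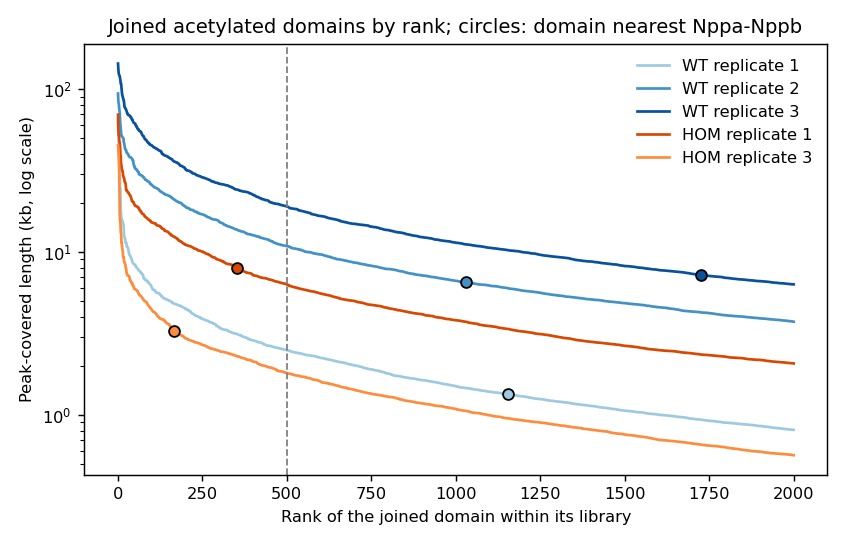
Peak-covered length in kb (log axis) of each joined domain against its rank within its own library, for 5 libraries; HOM replicate 2 is not drawn. The dashed line marks rank 500 and circles mark the domain nearest Nppa and Nppb, which lies beyond rank 500 in the WT libraries, at 354 in HOM replicate 1 and at 168 in HOM replicate 3.

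The domain nearest the deleted genes was not among the 428. In WT replicate 2 it lay at chr4:147961239-147969898, upstream of the annotated span of both genes, covered 6517 bp and ranked 1031 of 15030. Its ranks in WT replicates 1 and 3 were 1154 (of 7160 domains) and 1726 (of 18338). HOM replicate 1 had it at 354 (of 11397) and HOM replicate 3 at 168 (of 5654). HOM replicate 2 had no domain within 50 kb. In HOM replicates 1 and 3 the domain reached chr4:147982327 and chr4:147982650, against chr4:147969322 to chr4:147969927 in WT. It covered 1345, 6517 and 7212 bp in WT, and 8033 and 3266 bp in HOM replicates 1 and 3. As a percent of each list's domains, its rank was 16.1, 6.86 and 9.41 in WT. In HOM replicates 1 and 3 this was 3.11 and 2.97. The lists differ in length, so ranks alone cannot show whether the domain changed. A change with genotype was not tested.

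Coding genes made up 84.3% of the span of the 418 domains. Of the peaks inside them 83.5% to 86.9% lay in coding genes in the 5 longer lists, against 60.9% to 68.8% of the peaks outside all 428. Among the 418, 132 domains (31.6%) lay wholly inside 1 coding gene. There were 303 domains over 1 coding gene, 109 over several and 6 over none, and together they touched 540 coding genes. The genes were long, with a median of 63.6 kb over the genes touched by any of the 428 domains against 17.5 kb over all 20665 coding genes. Some genes were the leading gene of more than 1 domain. Arhgap26, a GTPase-activating protein, led 3, and 20 others led 2 each, among them Slc8a1 (the sodium-calcium exchanger), Cacnb2 (a calcium channel subunit), Pde3a and Pde4b (cyclic nucleotide phosphodiesterases) and Hdac4 (a class IIa deacetylase). Every autosome had between 13 and 31 of the domains.

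Promoter windows show how the mark lay at the starts of these genes. RefSeq (GRCm38.p6, the assembly that mm10 names) gave windows from 250 bases before to 50 after the start, and 443 windows of 342 genes lay in the 418 domains. The bases before the start are shown for 3 of the leading domains, chosen to span promoters called in 5, 4 and 2 libraries; capitals mark bases inside peaks of at least 4 libraries.
Sorbs2, chr8:45661743-45661992, plus strand, peaks in 5 libraries: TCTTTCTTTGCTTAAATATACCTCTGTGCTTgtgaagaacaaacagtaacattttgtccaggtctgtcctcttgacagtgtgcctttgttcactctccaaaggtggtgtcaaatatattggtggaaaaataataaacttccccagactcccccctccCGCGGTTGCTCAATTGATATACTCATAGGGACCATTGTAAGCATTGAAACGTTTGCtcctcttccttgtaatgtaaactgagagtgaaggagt
Camk2d, chr3:126596701-126596950, plus strand, peaks in 4 libraries: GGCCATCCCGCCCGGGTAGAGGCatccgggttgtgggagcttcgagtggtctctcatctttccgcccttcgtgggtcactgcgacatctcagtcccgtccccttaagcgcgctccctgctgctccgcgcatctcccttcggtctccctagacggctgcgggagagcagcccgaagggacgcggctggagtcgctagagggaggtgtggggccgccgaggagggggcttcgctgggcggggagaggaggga
Ank, chr15:27466427-27466676, plus strand, peaks in 2 libraries: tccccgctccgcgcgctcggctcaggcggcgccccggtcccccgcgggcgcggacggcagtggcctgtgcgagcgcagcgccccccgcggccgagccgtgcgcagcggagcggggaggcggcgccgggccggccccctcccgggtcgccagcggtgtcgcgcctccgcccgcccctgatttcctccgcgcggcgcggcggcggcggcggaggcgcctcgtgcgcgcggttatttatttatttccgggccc

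In Sorbs2, which encodes a Z-disc adaptor, 87 of these 250 bases lay in peaks of at least 4 libraries, in 2 separate runs. In Camk2d, the delta form of calcium/calmodulin-dependent kinase II, 23 bases at the far end did so. In Ank, a transporter involved in pyrophosphate export, no base did, and WT replicates 2 and 3 alone had a peak there. The Ank stretch is 81.2% G and C, against 68.4% in Camk2d and 41.6% in Sorbs2. Another Sorbs2 start, with its stretch at chr8:45627501-45627750, held peaks in 3 libraries.

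Over all 443 windows, 16.9%, 66.1% and 85.6% held a peak in WT, against 3.77%, 18.7% and 32.2% of all 20085 windows of coding genes. In HOM the shares were 44.2%, 0.226% and 18.5%, against 10.7%, 0.0896% and 2.79%. In HOM replicate 2 this was 1 window, near the background; in WT replicate 1, HOM replicate 1 and HOM replicate 3 the share in the domains was above it. WT replicates 2 and 3 chose the domains. In WT replicate 1 and HOM replicate 3, most starts inside the domains had no called peak, although each of the 428 domains had a peak in WT replicate 1. Short motifs were searched in the windows on both strands. The MEF2 motif CTAAAAATA was in 0.677% of windows in the domains and 0.418% of all windows, the GATA motif AGATAA in 7.22% and 9.57%, and the TEAD motif GGAATG in 13.5% and 13.4%. The ERR motif TCAAGGTCA was in 0.226% and 0.339%, and the AP-1 motif TGANTCA in 6.77% and 7.06%. These are matches of letters in promoter windows and say nothing of peaks elsewhere in the domains.

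Several of the 418 domains hold microRNA genes, which were looked at after the values were seen. RefSeq hairpins inside the domains numbered 23 of 919 on chromosomes 1 to 19 (2.5%). Of all coding genes, 2.71% overlapped a domain, with the loci set apart included. The share of hairpins was thus near that of coding genes, and the count shows no excess of microRNAs. From the 23 hairpins, members of known pairs and clusters and miR-490 were picked for display. They are shown with the seed (bases 2 to 8) in capitals, and the other hairpins are not shown.
mmu-let-7c-5p: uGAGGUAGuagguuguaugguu
mmu-let-7b-5p: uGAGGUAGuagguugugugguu
mmu-miR-29b-3p: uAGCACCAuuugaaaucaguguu
mmu-miR-29c-3p: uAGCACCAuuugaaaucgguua
mmu-miR-27b-3p: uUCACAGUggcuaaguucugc
mmu-miR-24-3p: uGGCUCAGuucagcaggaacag
mmu-miR-490-3p: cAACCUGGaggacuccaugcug
The 2 let-7 genes share a seed and lie in the Ppara domain. The 2 miR-29 genes share another and lie in the domain led by Cd46, which was covered over 2281, 13643 and 27418 bp in WT and 6102, 74 and 936 bp in HOM. Mir23b, Mir27b and Mir24-1 lie in the domain led by Aopep, covered over 9599, 29819 and 42846 bp in WT and 19015, 0 and 4708 bp in HOM. Mir490 lies inside Chrm2, the muscarinic receptor of the heart, whose domain had 12433, 45277 and 75628 bp in WT and 25736, 59 and 7990 bp in HOM. Peaks mark the domain and do not measure the microRNAs.

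The presence of peaks was then read in the 4 libraries that the choice did not use. All 428 had a peak in WT replicate 1, against 38% of all domains of WT replicate 2. All 428 had one in HOM replicate 1, against 59%. In HOM replicate 3, 426 (99.5%) had one, against 30.9%, and the exceptions were Zbtb20, encoding a zinc finger repressor, and Grb14, an adaptor of the insulin receptor. In HOM replicate 2, 124 (29.0%) had one, against 4.06%. Wide domains offer more room for a peak, and the part of width in these shares was not tested.

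High rank was shared less fully than presence. Of the 428 domains, 309 (72.2%) overlapped a top 500 domain of WT replicate 1, against 3.15% of all domains of WT replicate 2. The count was 365 (85.3%) for HOM replicate 1 against 3.47%, and 288 (67.3%) for HOM replicate 3 against 3.05%. In the other direction, 336 of the top 500 domains of WT replicate 1 (67.2%), 376 of HOM replicate 1 (75.2%) and 330 of HOM replicate 3 (66%) overlapped one of the 428. For HOM replicate 2 the count was 86 (20.1%) against 2.92%, in a list whose rank 500 covers 59 bp. Of the 418 domains outside the loci set apart, 243 (58.1%) were in the top 500 of WT replicate 1, HOM replicate 1 and HOM replicate 3 together, and 50 (12.0%) were in none of these.

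Covered length in most domains rose with the length of the list. The median over the 418 domains was 4531, 18096 and 27466.5 bp in WT, against 10993, 0 and 2976 bp in HOM. As a share of the domain's span the medians were 7.65%, 33.7% and 52.3% in WT and 19.9%, 0% and 5.40% in HOM. In 341 domains (81.6%) the 5 longer lists stood in exactly the order of their totals, from HOM replicate 3 through WT replicate 1, HOM replicate 1 and WT replicate 2 to WT replicate 3. HOM replicate 1 was above WT replicate 1 in all 418. HOM replicate 3 was below it in 344 (82.3%), so the genotypes overlapped in absolute coverage. Across the 418 domains Spearman's rho of covered length was 0.85 between WT replicate 1 and HOM replicate 1. It was 0.77 between WT replicate 1 and HOM replicate 3, and 0.88 between WT replicates 2 and 3, which chose the domains. WT replicate 1 had lower values with WT replicates 2 and 3, at 0.71 and 0.64. HOM replicates 1 and 3 had 0.83 with each other. Pairs with HOM replicate 2 had 0.23 to 0.37. These are descriptions across domains, which share their libraries, and domain span enters both sides.

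Peaks had a greater median width inside the domains than outside in 3 of the 4 libraries that the choice did not use. In WT replicate 1 the median width was 257 bp inside the 418 domains and 232 bp outside all 428, in HOM replicate 1 it was 295 and 248 bp, and in HOM replicate 3 it was 242 and 226 bp. The authors' fold enrichment at the summit had medians of 4.84 inside and 4.84 outside in WT replicate 1, 4.91 and 4.53 in HOM replicate 1, and 4.62 and 4.62 in HOM replicate 3. HOM replicate 2 had narrower and weaker peaks inside, with medians of 65 bp against 77 bp and a fold of 5.78 against 7.38.

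Among the 20 with the greatest covered length were those led, in order, by Rbm20, Ank, Vps13d, Rbpms, Tns1, Camk2d, Fhod3, Mbnl1, Nfia, Ppargc1b, Trak1, Synpo2, Cdh2, Sorbs2, Chrm2, Cpeb3, Dysf, Ehd4 and Gata4. In 18 of the 20 the 5 longer lists stood in the order of their totals, and 19 of the 20 were in the top 500 of WT replicate 1, HOM replicate 1 and HOM replicate 3. The exception was Cdh2, at rank 520 in HOM replicate 3.

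**Figure D2:**
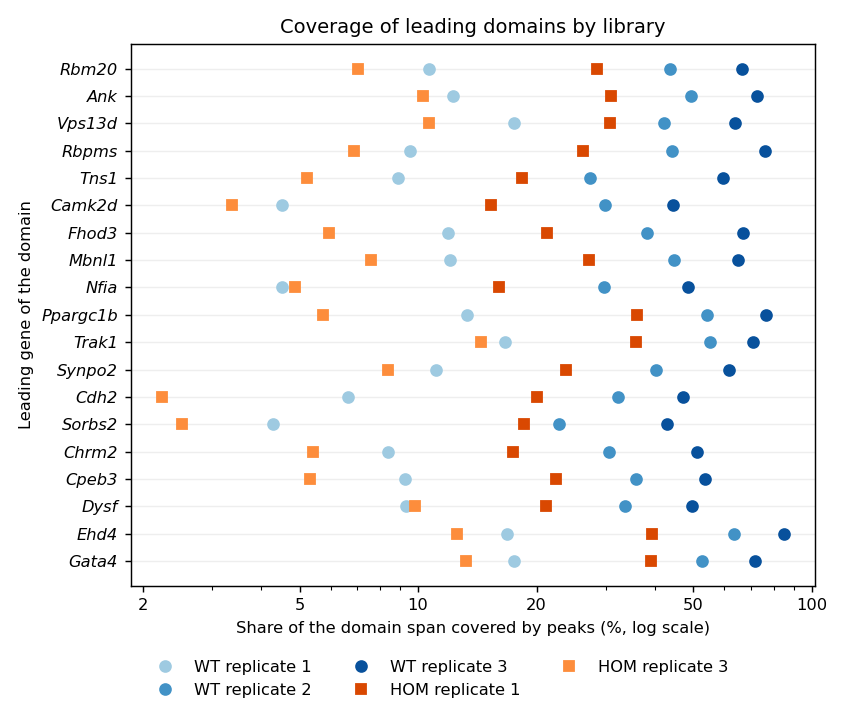
Share of each domain's span covered by peaks (%, log axis) for 19 of the 20 leading domains outside the loci set apart, named by the coding gene with the greatest overlap; circles are WT and squares HOM libraries, and HOM replicate 2, at 0 to 0.2%, is not drawn. In every row WT replicate 3 is highest and HOM replicate 1 lies between WT replicate 1 and WT replicate 2.

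Rbm20, the splicing factor that controls titin isoforms, led the list. Its domain at chr19:53645927-53861548 spans 215.6 kb and had 180 peaks in WT replicate 2. Peaks lay over 22945, 94114 and 143709 bp of it in WT and 61394, 0 and 15163 bp in HOM. It ranked 13 in WT replicate 1, 6 in HOM replicate 1 and 12 in HOM replicate 3. The other RNA-binding proteins of splicing among the 20, Rbpms and Mbnl1, led the domains at ranks 7 and 11. The Rbpms domain was covered over 14305, 66114 and 113754 bp in WT and 39330, 57 and 10286 bp in HOM. The HOM values again lay on both sides of WT replicate 1.

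Tns1 and Sorbs2, genes of cell adhesion and the cytoskeleton, had domains of more than 200 kb. Tns1 encodes tensin, which links integrins to actin. Its 220.6 kb domain was the widest of all, with 19626, 60364 and 131470 bp in WT and 40548, 114 and 11502 bp in HOM. Sorbs2 had 8751, 46718 and 87798 bp in WT and 38014, 0 and 5133 bp in HOM, and it ranked 446 in HOM replicate 3, where Tns1 ranked 26. Further down the 20, Trak1, an adaptor for mitochondrial transport, was covered over 15258, 50563 and 64895 bp in WT and 32782, 0 and 13278 bp in HOM. It ranked 15 in WT replicate 2 and 9 in HOM replicate 3.

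The 14 gene lists, chosen with earlier results of these data known, cover heart muscle functions, stress and housekeeping genes and markers of cardiomyocytes and of other cells. Of their 358 distinct genes 94 overlapped one of the 428 domains, against 561 of all 20665 coding genes (2.71%). These counts use the libraries that chose the domains. Genes were counted in the same way over the top 500 domains of the other libraries, each ranked on its own, without that choice of domains. The backgrounds of these domains over all coding genes were 2.16% in WT replicate 1, 2.64% in HOM replicate 1 and 2.03% in HOM replicate 3. Long genes are touched by domains more often, so each list's median gene length is given beside its count.

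**Figure D3:**
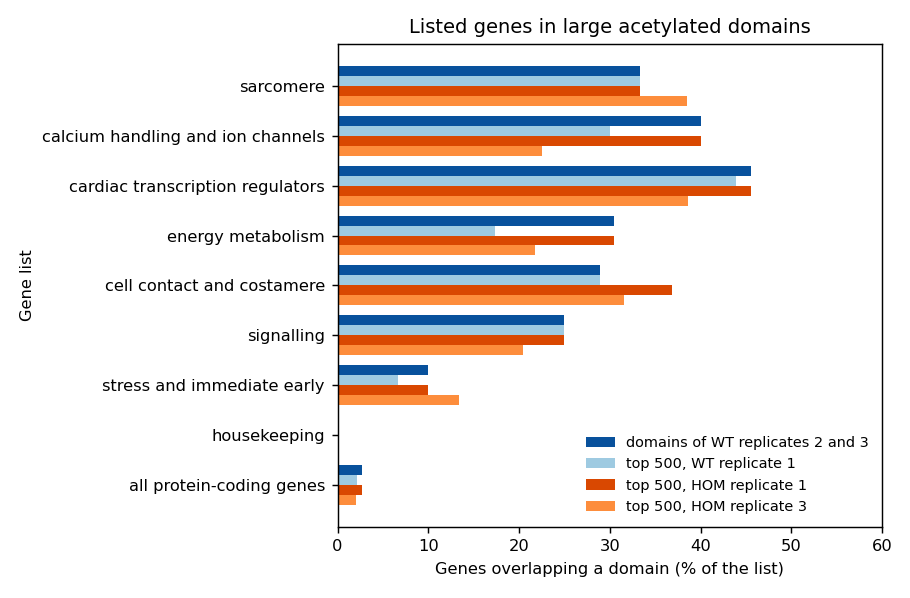
Share of each gene list (%) that overlaps one of the 428 domains or a top 500 domain of WT replicate 1, HOM replicate 1 or HOM replicate 3, with all coding genes at the bottom. The cardiac lists reach 17.4% to 45.6%, stress genes 6.67% to 13.3% and housekeeping genes 0%, with all coding genes at 2.03% to 2.71%.

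Transcription regulators of the heart were the list most often inside the domains, with 26 of 57 genes (45.6%; median gene length 86.9 kb). The top 500 of WT replicate 1, HOM replicate 1 and HOM replicate 3 held 25, 26 and 22 of the 57. By rank in WT replicate 2 the leading 8 were Nfia, Ppargc1b, Gata4, Ppara, Myocd, Meis1, Ppargc1a and Hdac9. Gata4, a zinc finger factor needed for heart development, shared its domain with Neil2. It was covered over 14094, 42343 and 57744 bp in WT and 31411, 132 and 10619 bp in HOM, or 17.5%, 52.6% and 71.8% and 39.0%, 0.164% and 13.2% of its span. Myocd, the coactivator of serum response factor, was covered over 10207, 37303 and 61884 bp in WT and 25661, 0 and 6728 bp in HOM. Ppara, the fatty acid receptor that drives oxidation genes, had 9985, 39926 and 75390 bp in WT and 22535, 114 and 6342 bp in HOM. All 3 had HOM replicate 1 above and HOM replicate 3 below WT replicate 1.

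Sarcomere genes were inside the domains for 13 of 39 (33.3%; median gene length 26.1 kb), with 13, 13 and 15 of the 39 in the top 500 of WT replicate 1, HOM replicate 1 and HOM replicate 3. The leading 8 were Rbm20, Fhod3, Lmod2, Ldb3, Actn2, Des, Speg and Pdlim5, with Des (desmin) and Speg (a muscle kinase) in 1 shared domain. Rbm20, counted in this list, is the splicing factor described above. Fhod3, a formin of the thin filament, was covered over 16892, 54059 and 94468 bp in WT and 29998, 234 and 8425 bp in HOM. Lmod2, which nucleates actin at the pointed end, lay in a domain led by Asb15 with 10558, 37510 and 59045 bp in WT and 24098, 63 and 7929 bp in HOM. Actn2, the alpha-actinin of the Z-disc, departed from the order of the totals in WT replicate 1. It had 1340, 24883 and 38948 bp in WT and 13475, 0 and 1609 bp in HOM, so that HOM replicate 3 exceeded WT replicate 1 in spite of its shorter list.

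Calcium handling and ion channel genes were inside for 16 of 40 (40%; median gene length 54.4 kb), with 12, 16 and 9 of the 40 in the top 500 of the same 3 libraries. Among the leading genes were Camk2d, Atp2a2, Jph2, Cacna1c, Pln, Srl and Hcn2. Atp2a2, the calcium pump of the sarcoplasmic reticulum, was covered over 9457, 38158 and 60489 bp in WT and 24212, 117 and 10763 bp in HOM. Pln, its inhibitor phospholamban, lay in a domain led by Cep85l with 10515, 22511 and 34800 bp in WT and 17627, 0 and 6333 bp in HOM. Cacna1c, the pore of the L-type calcium channel, had 6372, 31982 and 50661 bp in WT and 23873, 0 and 4340 bp in HOM. For the pump, unlike the other 2, HOM replicate 3 stood above WT replicate 1.

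Energy metabolism genes were inside for 14 of 46 (30.4%) in spite of a median gene length of 16.5 kb, below that of all coding genes. The top 500 of WT replicate 1, HOM replicate 1 and HOM replicate 3 held 8, 14 and 10 of the 46. Among the leading genes were Cd36, Mb, Hk2, Idh2, Hadha, Hadhb and Pfkm. Cd36, the fatty acid transporter, was covered over 15839, 39991 and 59342 bp in WT and 31793, 64 and 9571 bp in HOM. Mb (myoglobin) had 7493, 28149 and 38851 bp in WT and 15922, 0 and 4922 bp in HOM. Hadha and Hadhb, the 2 subunits of the mitochondrial trifunctional protein, shared a domain of 28.8 kb with 5062, 23113 and 26739 bp in WT and 14085, 0 and 5408 bp in HOM. For this short domain HOM replicate 3 was above WT replicate 1, while for Cd36 and Mb it was below.

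Genes of cell contact and the costamere, the membrane anchor of the Z-disc, were inside for 11 of 38 (28.9%; median gene length 62.2 kb), with 11, 14 and 12 of the 38 in the top 500 of the 3 libraries. Among the leading genes were Tns1, Cdh2, Sorbs2, Ehd4, Pkp2, Dag1 and Ctnna1. Cdh2, the N-cadherin of the intercalated disc, was covered over 9754, 47199 and 69154 bp in WT and 29381, 0 and 3277 bp in HOM. Pkp2 (plakophilin 2) had 7146, 29032 and 40998 bp in WT and 18737, 0 and 4037 bp in HOM. Signalling genes were inside for 11 of 44 (25%; median gene length 127.7 kb), with 11, 11 and 9 of the 44 in the top 500 of these libraries. They were led by Rcan2, Insr, Irs1, Adrb1, Corin, Pde3a, Map3k5 and Adcy5. Adrb1, the beta-1 adrenergic receptor, had 7500, 23357 and 31273 bp in WT and 14669, 0 and 4620 bp in HOM. Corin, the protease that activates atrial natriuretic peptide, had 7869, 19043 and 48546 bp in WT and 14766, 57 and 4303 bp in HOM. Both stood with HOM replicate 3 below and HOM replicate 1 above WT replicate 1.

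Stress and immediate early genes, mostly short with a median of 3.57 kb, were inside for 3 of 30 (10%): Fbxo32, a muscle ubiquitin ligase, Bag3, a co-chaperone, and Txnip, an inhibitor of thioredoxin. Of 22 housekeeping genes, with a median of 5.55 kb, none was inside the domains or the top 500 of any of the 4 other libraries. The top 500 of HOM replicate 2 touched 1.27% of coding genes. With 22 genes and 2.71% of coding genes inside, a count of 0 is near the background. Of 8 cardiomyocyte markers 3 were inside, namely Actn2, Pln and Ryr2 (the calcium release channel). The others of the 8, genes of myosin, troponin and titin, were outside. The top 500 of HOM replicate 1 held 3 of the 8, while those of WT replicate 1, HOM replicate 2 and HOM replicate 3 held none. The 8 markers each of fibroblasts, endothelial cells, smooth muscle and pericytes, immune cells and other organs were all outside the domains. With 8 genes a list, a count of 0 is again near the background. A gene was counted where any base of it overlapped. With the stricter demand that an annotated end of the gene lie inside, 73 of the listed genes were, against 2.16% of coding genes.

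The share of a library's covered length that fell in the domains was compared between genotypes over the 4 libraries that the choice did not use. It was 38.7% in WT replicate 1 and 33.9%, 45.4% and 40.9% in HOM (mean 40.1 ± 5.75%, SD, n = 3). The difference, HOM minus WT replicate 1, was 1.35 percentage points, with a two-sided exact permutation p of 1. With 1 library against 3 the smallest p is 0.25, so this comparison cannot pass 0.05. WT replicates 2 and 3, which chose the domains, had 30.1% and 25.8%. Most of the 45.4% in HOM replicate 2 lay in the 10 loci set apart. Outside them the shares were 33.4%, 28.8% and 25.2% in WT and 31.9%, 6.41% and 35.1% in HOM. The value for HOM minus WT replicate 1 was then -8.91 percentage points, and 0.123 without HOM replicate 2. The sign thus changed when HOM replicate 2 or the 10 loci were left out. It also changed under other settings of the domains, among them ranking by span (-3.391). The criterion for the 10 loci uses coverage in HOM replicate 2 and WT replicate 1, both among the libraries compared. The low share of HOM replicate 2 outside the loci is therefore partly set by that criterion, and no p-value is given for it. HOM replicate 2 was then left out and every other list cut to its 15184 strongest peaks. The share outside the loci was 34.6%, 36.0% and 34.2% in WT, with 37.0% and 35.1% in HOM replicates 1 and 3.

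**Figure D4:**
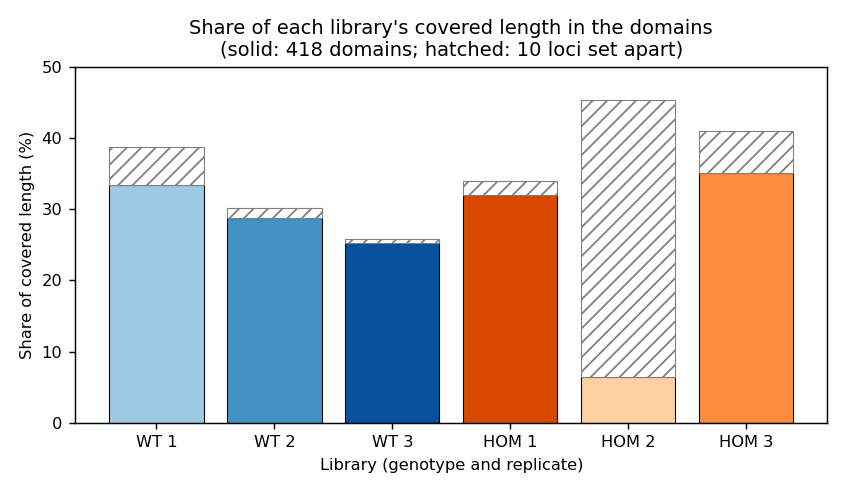
Share of each library's peak-covered length on chromosomes 1 to 19 (%) that lies in the 428 domains, one bar per library; the solid part is the 418 domains and the hatched part the 10 loci set apart. The solid part is 25.2% to 35.1% in 5 libraries and 6.41% in HOM replicate 2, where the hatched part makes up most of the bar.

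Relative coverage, the bp covered in a domain per Mb covered in the library, was compared domain by domain between HOM replicates 1 and 3 and WT replicate 1. With a single WT library outside the choice there is no replicate check and no p-value. The 416 domains with a peak in all 3 libraries had a median log2 ratio to WT replicate 1 of -0.03 in HOM replicate 1, with 80% of domains between -0.53 and 0.57. In HOM replicate 3 the median was 0.07, with 80% between -0.71 and 0.76. At least 2-fold higher in HOM replicate 1 were 15 (3.61%), against 10.6% of the 3703 domains of WT replicate 2 measured in all 3 libraries, and 1 (0.240%) was at least 2-fold lower, against 15.2%. For HOM replicate 3 the counts were 23 (5.53%) against 15.9% and 16 (3.85%) against 10.7%. In both HOM libraries 142 domains were higher and 132 lower than in WT replicate 1. At least 2-fold higher in both were 9 domains (2.16%) against 6.05%, and 0 were at least 2-fold lower in both, against 2.46%. The shares at these folds were thus lower than over domains at large. The domains are wide and hold many peaks each, and the part this plays was not tested. The 3703 domains include the 10 loci set apart, while the 416 do not. All 10 were at least 2-fold lower in HOM replicate 1, so leaving them out by itself reduced the count of lower domains. The criterion for these loci uses WT replicate 1. With the stronger 50% of peaks the counts in both were 29 and 6 in place of 9 and 0.

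Among the 9 domains at least 2-fold higher in both were those led by Ppargc1a, Bag3, Mical3, Cblb, Mfhas1, Slc25a42, Acot7 and Pdzd2. Ppargc1a, the coactivator of mitochondrial biogenesis, had 275, 1001 and 862 bp per Mb in WT, with 795 and 1223 in HOM replicates 1 and 3. In 8 of the 9, WT replicate 2 or 3 was at or above the lower of the 2 HOM values; these 2 WT libraries chose the domains and are given as a description. Bag3 was the other domain, with 321, 668 and 459 bp per Mb in WT, with 716 and 1405 in HOM. Among the 416 domains, the highest mean log2 ratios were 2.18 for Mfhas1, 2.08 for Acot7, 2.06 for Slc25a42 (a mitochondrial carrier) and 1.84 for Ppargc1a. WT replicate 1 covered 464, 177, 383 and 1783 bp of these 4 domains, so these ratios rest on short covered lengths. The lowest were -1.72 for Ap4s1, -1.48 for Trak2 (a mitochondrial transport adaptor), -1.34 for Adcy9 (an adenylyl cyclase), -1.23 for Lifr (a cytokine receptor) and -1.09 for Usp13 (a deubiquitinase). In Ap4s1 the values were 704, 513 and 444 bp per Mb in WT, with 402 and 114 in HOM, the HOM replicate 3 value resting on 500 covered bp. Adcy9 had 543, 401 and 347 in WT, with 285 and 160 in HOM. In Trak2, Lifr and Usp13 HOM replicate 1, at 560, 415 and 460, was above WT replicates 2 and 3. WT replicate 2 had 543, 361 and 376 there, and WT replicate 3 had 410, 351 and 315. HOM replicate 3, at 122, 217 and 256, was below every WT library in each.

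**Figure D5:**
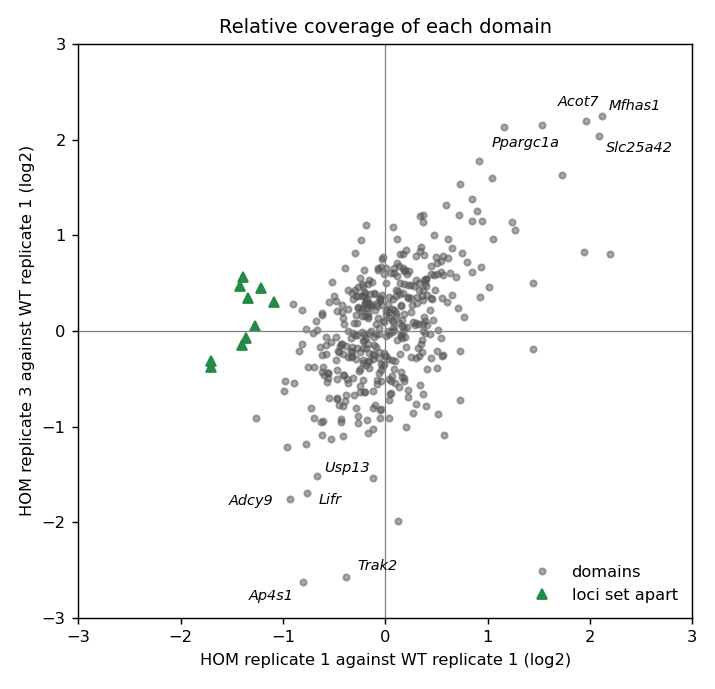
Log2 ratio of relative coverage (bp covered per Mb covered in the library) in HOM replicate 1 (x axis) and HOM replicate 3 (y axis) to WT replicate 1, one point per domain with a peak in all 3 libraries; the 10 loci set apart are triangles. Most of the 416 circles lie within 1 unit of 0 on both axes, the 4 highest and 5 lowest means are named, and all 10 triangles lie below -1 on the x axis. Both axes share WT replicate 1.

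All 10 loci set apart were at least 2-fold lower in HOM replicate 1 than in WT replicate 1. The criterion that set them apart uses WT replicate 1, so this is no result about the genotypes. In HOM replicate 3 their median log2 ratio was 0.18.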

How the data were processed

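Peak lists of 6 libraries were analysed. Per the submitters' processing notes, BWA, MACS2 and the build mm10 were used; versions are not given in the sources used here. For each library the authors deposited 1 list, giving each peak a score, its fold over background, a −log10 p-value and a −log10 q-value. They served here to describe and rank the peaks of 1 list. The sample titles gave group and replicate.

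Peaks were united, joined over gaps up to 12.5 kb and ranked by covered length on chromosomes 1 to 19. Genes, promoters and microRNAs came from RefSeq (GRCm38.p6), and a gene counted where 1 base overlapped. Positions are 1-based. Relative coverage is bp per Mb covered. The share of covered length was tested with an exact permutation test over 4 assignments. The domains, gene lists and rules were chosen with earlier results of these data known. Named genes were the leading coding genes of the 20 best-ranked domains, up to 8 per list, the 5 highest and 5 lowest in relative coverage, up to 5 loci set apart, and the edges of the threshold. The criterion for loci set apart was added after the data were seen; it brought Rbm20 and Sorbs2 among the 20 and left out Sfi1, a cluster with Speer genes and the start of chromosome 9. Some genes that the rule names are left out of the text and plots. Alternatives were other gaps, rank limits and ranking, stronger peaks, equal list lengths, omitted libraries and other overlap rules. In 200 simulated trials joining and coverage gave 0 mismatches. Software was scipy 1.17.1, pandas 2.3.3 and numpy 2.4.6 under Python 3.11.15, with plots from matplotlib 3.10.9.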

Additional observations from a re-analysis of the deposited data

How the results depend on the processing

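Of the values recomputed under alternatives, 127 were counted as the same, 38 moved beyond the limits set for them and 6 changed sign. For HOM minus WT replicate 1 in the share of covered length (1.355 percentage points as reported), only the sign was judged. Values that kept its sign ranged from 0.1234, outside the loci set apart without HOM replicate 2, to 4.846, ranked by width times the authors' fold. The sign changes all concern this difference. The value was -0.4264 with the top 1000 domains, -3.391 ranked by span and -8.908 outside the loci set apart. Leaving out 1 library gave between -1.287 and 4.419, with -0.0475 without WT replicate 2 and -1.287 without HOM replicate 2. At equal list length, a setting that also left out HOM replicate 2, the value was -0.2392. The smallest p of 0.25 says nothing of its stability. With the top 250 domains there were 192 members, 10 planned multicopy loci and 53 listed genes inside. Then 131, 159, 31 and 125 members were in the top ranks of WT replicate 1 and HOM replicates 1, 2 and 3, and 39.58% and 100% had a peak in HOM replicates 2 and 3. With the top 1000 these were 862, 25 and 145, then 603, 730, 183 and 602, and 21.23% had a peak in HOM replicate 2. The planned multicopy count of 16 was 8 joining over 5 kb, 40 over 20 kb, 7 with the stronger 50% of peaks, 32 without WT replicate 2, 21 without WT replicate 3, 55 with at least 2 predicted genes, and 10 by the added criterion. With the stronger 50% of peaks, 19 members were in the top ranks of HOM replicate 2, and 4.623% and 97.81% had a peak in HOM replicates 2 and 3. Domains at least 2-fold higher and lower (9 and 0) were 29 and 6 with the stronger 50% of peaks, 24 and 5 at equal list length, 23 and 16 without HOM replicate 1, and 15 and 1 without HOM replicate 3. The cause of these changes was not tested, except that the top 250 and top 1000 hold fewer and more domains by construction. Ranked by width times the authors' fold, 394 of 433 domains overlapped the reported ones, and ranked by span 268 of 342. No paired analysis was possible because the libraries compared, WT replicate 1 and the HOM libraries, share a single replicate number. Depth is unknown, so a domain without a peak in HOM replicate 2 is not shown to lack the mark.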

Other observations

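Zbtb16, a zinc finger repressor, was singled out after its values were seen. Its domain ranked 146 in WT replicate 2 and 11 in WT replicate 1, 11 in WT replicate 3, 30 in HOM replicate 1 and 10 in HOM replicate 3. It was covered over 16110, 22425 and 64913 bp in WT (replicates 1 to 3 in order), with 22470 and 13278 bp in HOM replicates 1 and 3. Per Mb covered these were 2485, 720 and 1185 in WT, with 1326 and 3028 in HOM, so WT replicate 2 was low and the genotypes overlapped. Fhl2, a LIM protein of the sarcomere, was low in WT replicate 1, at 62.5 bp per Mb. WT replicates 2 and 3 had 367 and 557, while HOM replicates 1 and 3 had 287 and 109.

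No coding gene was touched by 6 of the 418 domains. The one with the greatest covered length, at chr18:35021407-35095801, had 12949, 32200 and 39714 bp in WT and 24404, 143 and 10121 bp in HOM. The domain with the most coding genes held 9, among them Sema3b and Gnai2, and ranked 468.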
